A study of Homo sapiens with 6 samples.

Results

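The Argonaute, TNRC6 and Dicer genes are 10 genes of the microRNA machinery: the Argonaute genes AGO1, AGO2, AGO3 and AGO4, the TNRC6 genes TNRC6A, TNRC6B and TNRC6C, the nuclease gene DICER1, its partner TARBP2 and the helicase gene MOV10. They were taken by symbol from the array's probe annotation, and each of the 10 was read by 1 probe set that carried no other gene symbol, among 18417 genes in all. RNA that came down with an antibody against the AGO2 protein was measured on Affymetrix arrays, in PC3 cells transfected with miR-205 (3 arrays) and in PC3 cells transfected with a negative control mimic (3 arrays). PC3 is a prostate cancer line that grows without androgen, and the design text describes the experiment as done in biological triplicate. Both groups had the same line, the same rat monoclonal antibody (11A9) and a transfected mimic. The dose of the mimics and the time after transfection are not given in the sources used here, and no array of input RNA or of a precipitate without antibody was analysed here. A reading is therefore a relative level of a transcript in the precipitate, on arrays brought to a common distribution. Transcript abundance in the cells, binding to AGO2 and RNA carried along without binding cannot be told apart in it.

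In the cytoplasm Dicer cuts precursor hairpins into short duplexes with the help of double-stranded RNA-binding partners such as TARBP2, and 1 strand is loaded into an Argonaute protein. The loaded Argonaute finds transcripts through the seed of the microRNA and recruits a TNRC6 (GW182) scaffold, which brings in deadenylases and so leads to decapping and decay. The transcripts of these genes are themselves open to control by microRNAs, and DICER1 is a reported target of the let-7 and miR-103 families.

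Mature sequences of the transfected microRNA and of 1 member of each of these 2 DICER1-targeting families are shown from RefSeq (GRCh38.p14), 5′ to 3′, with the seed (bases 2 to 8) in capitals, so that the 3 seeds can be set side by side.
hsa-miR-205-5p: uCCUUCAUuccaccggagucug
hsa-let-7a-5p: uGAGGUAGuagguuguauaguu
hsa-miR-103a-3p: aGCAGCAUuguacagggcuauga
The first lies at chr1:209432166-209432187 on the plus strand, in MIR205. The 3 seeds differ, and the target heptamers that pair with them are AUGAAGG for miR-205, CUACCUC for let-7a and AUGCUGC for miR-103a. Transcript sequences were not used here, so sites for these seeds in the 10 transcripts were not searched.

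With miR-205, 6 of the 10 genes were lower in the AGO2 precipitate, 1 was higher and 3 did not pass the test (limma, Benjamini-Hochberg adjusted p under 0.05 over all 18417 genes). The lower ones were all 4 Argonaute genes, TNRC6B and DICER1, and the higher one was MOV10. Over all genes 26.6% passed in either direction, 14.0% as lower and 12.6% as higher. These shares also count dim genes. With dim genes filtered out, the 10 genes kept 6 lower and 1 higher. Calls over all genes kept then rose from 2586 to 2787 lower and from 2320 to 2483 higher, among fewer genes. Shares over brighter genes alone are thus above those given here, but were not worked out. The median log2 change of the 10 genes was -0.30, against -0.02 over all genes. For 7 of the 10, all arrays of one group lay to one side of the other group's, 6 lower and 1 higher, which was so for 42.2% of all genes (22.2% lower, 19.9% higher).

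The arrays separated by group on the first principal component (69.5% of the variance), and negative control replicate 2 stood apart on the second (13.1%), at -18.1 against 0.2 to 7.68 in the other 5 arrays. Array medians lay between 6.82 and 6.86 on the log2 scale. The PC3 markers KRT8, KRT18, VIM, CD44 and CAV1 averaged 11.6 to 12.6, and the prostate secretory gene KLK3 averaged 6.07, next to 6.04, the 95th percentile of 360 olfactory receptor genes, used here as the level of genes that are not expressed. The leukocyte genes PTPRC (3.61) and CD3E (5.26) lay under that level and CD14 (6.33) just above it, while CD68, a lysosomal gene, averaged 9.80. Of the hepatocyte genes ALB, TTR and SERPINA1 lay under it and APOA1 averaged 7.35. All 10 machinery genes were above the olfactory receptor level in all 6 arrays, with values of 7.32 to 12.3. The values of TNRC6C (7.32 to 8.20) reached down to the level of APOA1, so passing that level does not clearly show its expression. ZEB1, a repressor of epithelial genes reported as a direct miR-205 target, changed by -0.82 (limma adjusted p = 9.43e-05). Of 10 reported targets, listed with earlier results of these data known, 6 were lower, NOTCH2 (-1.40) and ITGA5 (-0.76) among them. At the adjusted threshold 0 were higher, and 0 also at an unadjusted limma p under 0.05. Over all genes 14.0% were lower and 12.6% higher. Whether the falls of these targets reflect abundance or binding to AGO2 was not tested, so they are no clear check on the mimic.

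AGO2 encodes the Argonaute that can cut its target and the protein on which the precipitation was done. Its log2 intensity was 11.42, 11.52 and 11.42 in the 3 miR-205 arrays, against 12.18, 12.04 and 12.32 in the 3 negative control arrays. The miR-205 arrays lay within 0.10 of each other and all lay below the lowest control array, by 0.52. AGO2 averaged 11.5 ± 0.06 with miR-205 and 12.2 ± 0.14 with the negative control (SD, n = 3 each), a log2 change of -0.73 ± 0.08 (SE, 95% interval -0.91 to -0.54, adjusted p = 0.000392), or 0.605 times the control level. Of all genes, 1.24% had a change as low or lower. The fall passed with each of the 6 arrays left out in turn, with changes of -0.80 to -0.65.

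AGO1, AGO3 and AGO4 encode Argonautes that hold microRNAs but cut targets little or not at all, and in the reference annotation they stand in a row on the same chromosome, in the order AGO4, AGO1, AGO3, with 1 pseudogene, CFAP97P1, among them. AGO1 had 10.46, 10.57 and 10.52 with miR-205, against 10.83, 10.85 and 10.98 with the negative control. The groups were 0.27 apart at their nearest arrays, and the fall was by 0.37 ± 0.07 (SE, adjusted p = 0.00371), the next largest among the Argonaute genes after AGO2.

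For AGO3 the log2 intensities were 9.40, 9.39 and 9.32 with miR-205, against 9.55, 9.52 and 9.74 with the negative control. AGO4 stood at 8.45, 8.38 and 8.39 with miR-205, against 8.60, 8.55 and 8.74 with the negative control. In both genes the groups lay apart by a narrow margin, 0.11 for AGO3 and 0.10 for AGO4, and control replicate 3 was the highest array. AGO3 changed by -0.23 ± 0.07 (adjusted p = 0.0463) and AGO4 by -0.22 ± 0.07 (adjusted p = 0.0377). Both calls were close to the threshold: they ended when any 1 array other than negative control replicate 2 was left out (adjusted p up to 0.142 for AGO3 and 0.122 for AGO4), and when every probe set of the array was tested (0.0944 and 0.0777). Without control replicate 2 they passed, with changes of -0.27 for each of the pair, and without control replicate 3 the changes were the smallest, -0.16 for AGO3 and -0.17 for AGO4. Probe sequences were not used here, so whether a probe of 1 Argonaute gene also reads the transcript of another was not tested.

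**Figure D1:**
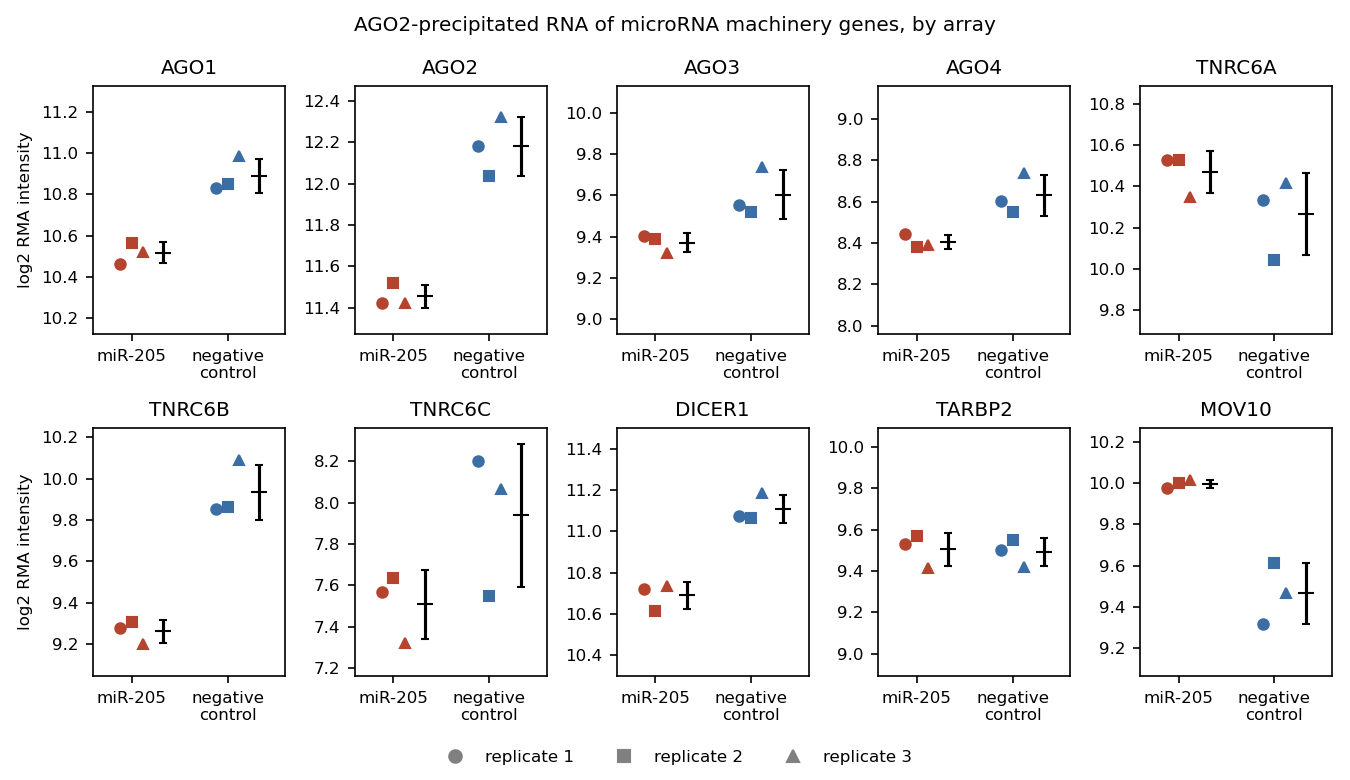
Log2 RMA intensity of each gene in the AGO2 precipitate of the 3 miR-205 arrays (red, left) and the 3 negative control arrays (blue, right), with marker shape giving the replicate number, the black dash the group mean and the bar its SD, each panel covering 1.2 log2 units. The groups lie apart for the 4 Argonaute genes, TNRC6B, DICER1 and MOV10, and overlap for TNRC6A, TNRC6C and TARBP2.

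The TNRC6 genes encode the scaffolds that Argonaute recruits, and 1 of the 3, TNRC6B, passed the test. TNRC6B had 9.28, 9.31 and 9.20 with miR-205, against 9.85, 9.86 and 10.09 with the negative control. The groups were 0.55 apart, the widest gap among the 10 genes. TNRC6B fell by 0.67 ± 0.08 (SE, 95% interval of the change -0.85 to -0.50, adjusted p = 0.000472), to 0.627 times the control level, and 1.62% of all genes had a change as low or lower. It passed with each array left out, at -0.71 to -0.60.

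TNRC6C had 7.57, 7.64 and 7.32 with miR-205, against 8.20, 7.55 and 8.07 with the negative control. Control replicate 2 lay inside the range of the miR-205 arrays, and the other control arrays lay well above it. The lower arrays were near the level of the hepatocyte gene APOA1 (7.35), so expression of TNRC6C is not clearly shown there. The change of -0.43 ± 0.16 (95% interval -0.80 to -0.07) did not pass (adjusted p = 0.0803). Without control replicate 2 it was -0.63 and passed (adjusted p = 0.00221), and array weights also brought it past the threshold (adjusted p = 0.0325).

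TNRC6A had 10.53, 10.53 and 10.35 with miR-205, against 10.33, 10.04 and 10.42 with the negative control. The ranges overlapped, since miR-205 replicate 3 lay below control replicate 3, and control replicate 2 was the lowest array. The change of 0.20 ± 0.10 (95% interval -0.03 to 0.44) did not pass (adjusted p = 0.183), and without control replicate 2 it was 0.09.

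DICER1 encodes the nuclease that makes mature microRNAs from precursor hairpins. Its values were 10.72, 10.61 and 10.73 with miR-205, against 11.07, 11.06 and 11.18 with the negative control. The 2 groups had a like spread, 0.12 from lowest to highest array in each, and were 0.33 apart. DICER1 changed by -0.42 ± 0.06 (SE, 95% interval -0.56 to -0.27, adjusted p = 0.00202), or 0.749 times the control level, and the call held with each array left out. The gene DICER1-AS1, antisense to it and chosen after its values were seen, was dim, at 5.25 with miR-205 and 5.26 with the control.

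TARBP2, which encodes the double-stranded RNA-binding partner of Dicer, had 9.53, 9.57 and 9.42 with miR-205, against 9.50, 9.55 and 9.42 with the negative control. The ranges of the groups nearly coincided. The change was 0.01 ± 0.07 (adjusted p = 0.906), with a 95% interval of -0.14 to 0.17, which leaves room for a change of that size in either direction.

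MOV10 encodes an RNA helicase found with Argonaute that also acts against retroviruses and retrotransposons. It had 9.974, 9.997 and 10.013 with miR-205, against 9.32, 9.61 and 9.47 with the negative control. The miR-205 arrays lay within 0.04 of each other, the tightest group among the 10 genes, and all lay above the highest control array by 0.36. MOV10 rose by 0.53 ± 0.08 (SE, 95% interval 0.35 to 0.71, adjusted p = 0.00164), or 1.44 times the control level, and 3.01% of all genes had a change as high or higher. The rise was 0.46 to 0.60 with 1 array left out and passed each time.

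**Figure D2:**
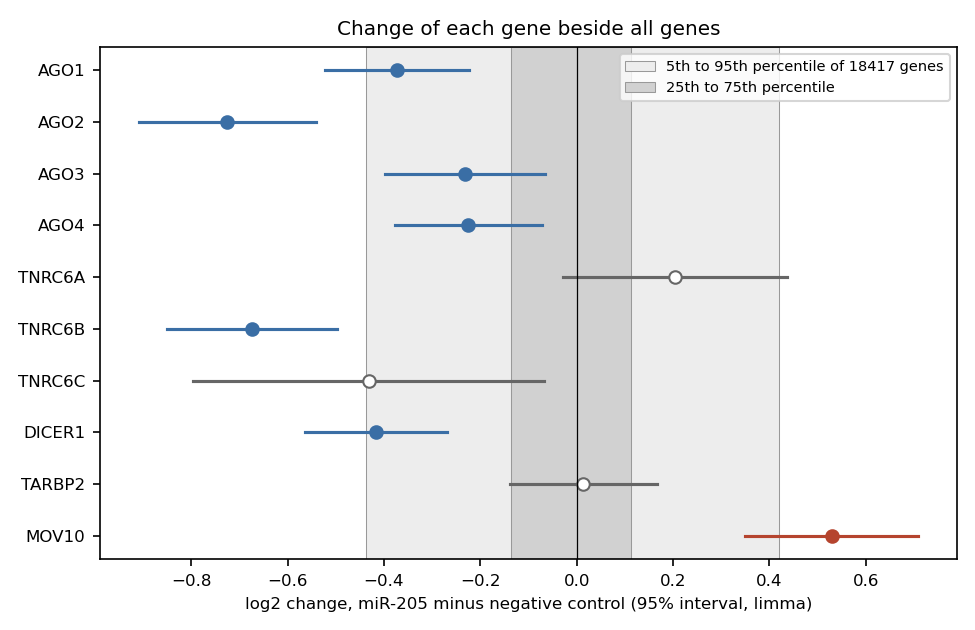
Log2 change (miR-205 minus negative control) of each gene with its 95% interval from limma, filled where the adjusted p was under 0.05 (blue lower, red higher) and open where it was not, over grey bands that give the percentiles of the change over all 18417 genes. AGO2 and TNRC6B lie below the 5th percentile with their whole intervals, at -0.73 and -0.67, and MOV10 lies above the 95th at 0.53.

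The call rested on the choice of arrays for AGO3, AGO4 and TNRC6C only, among the 10 genes and the 6 arrays left out in turn. Leaving out any 1 array other than negative control replicate 2 left 4 genes lower (AGO1, AGO2, TNRC6B and DICER1) and 1 higher, and leaving out that control array left 7 lower and 1 higher. Calls over all genes moved likewise, to 2881 lower and 2668 higher without that control array. Without any other single array they numbered 1777 to 2098 lower and 1588 to 1711 higher.

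**Figure D3:**
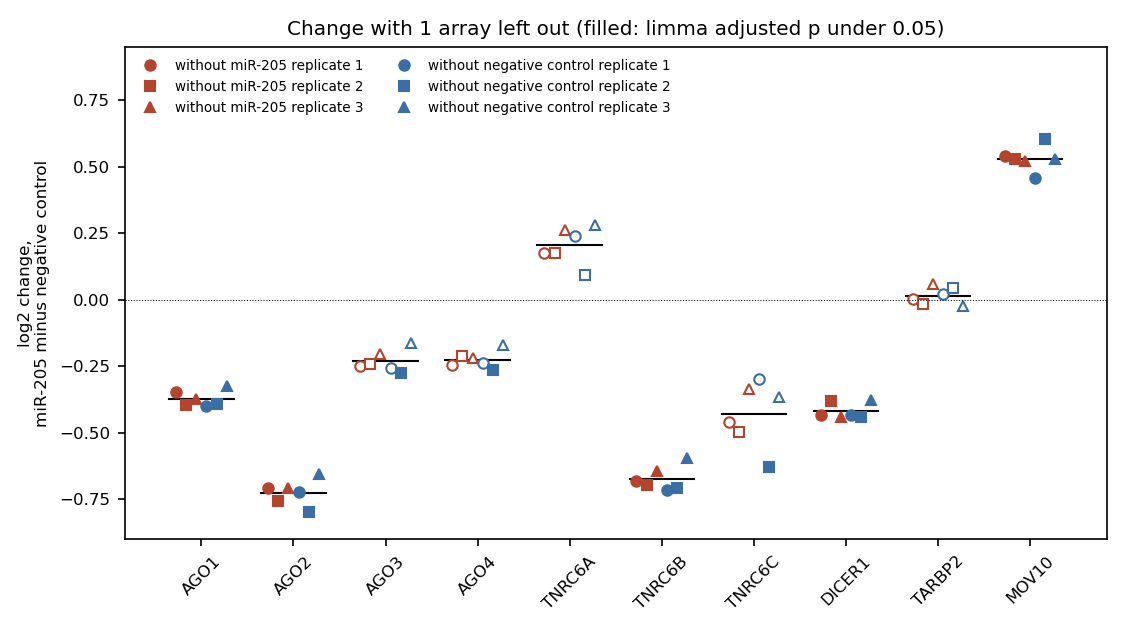
Log2 change (miR-205 minus negative control) of each gene with 1 array left out (6 points a gene, coloured by the group and shaped by the replicate number of the array left out), with the value from all 6 arrays as a black line and filled points where the limma adjusted p was under 0.05. AGO1, AGO2, TNRC6B, DICER1 and MOV10 pass in every case, AGO3, AGO4 and TNRC6C only without negative control replicate 2, and TNRC6A and TARBP2 in none.

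Genes of a family or complex were also set against each other within each array, for 6 pairs. AGO2 minus AGO1 was 0.96, 0.95 and 0.90 with miR-205, against 1.35, 1.19 and 1.34 with the negative control. All 3 miR-205 arrays lay below all 3 control arrays, and the difference of -0.35 had an exact two-sided permutation p of 0.1 (0.12 adjusted over the 6 pairs), where 0.1 is the smallest that 3 against 3 arrays can give. The same held for AGO2 minus AGO3 (-0.49), AGO2 minus AGO4 (-0.50), TNRC6B minus TNRC6A (-0.88) and DICER1 minus TARBP2 (-0.43), each without overlap and at the same smallest exact p.

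TNRC6B minus TNRC6A was -1.25, -1.22 and -1.15 with miR-205, against -0.48, -0.18 and -0.33 with the negative control, the widest shift of the 6 pairs. TNRC6B minus TNRC6C overlapped between the groups, with a difference of -0.24 (exact permutation p = 0.4) that ranged from -0.42 to -0.08 with 1 array left out. With 3 arrays a group no pair could reach an exact p under 0.05. The pairs were chosen with earlier results known, and each difference equals the first gene's change minus the second's. The separation is therefore no test apart from the changes of the single genes. How often gene pairs separate over all genes was not worked out. These differences are descriptions, and they say nothing of the level of one gene against another.

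**Figure D4:**
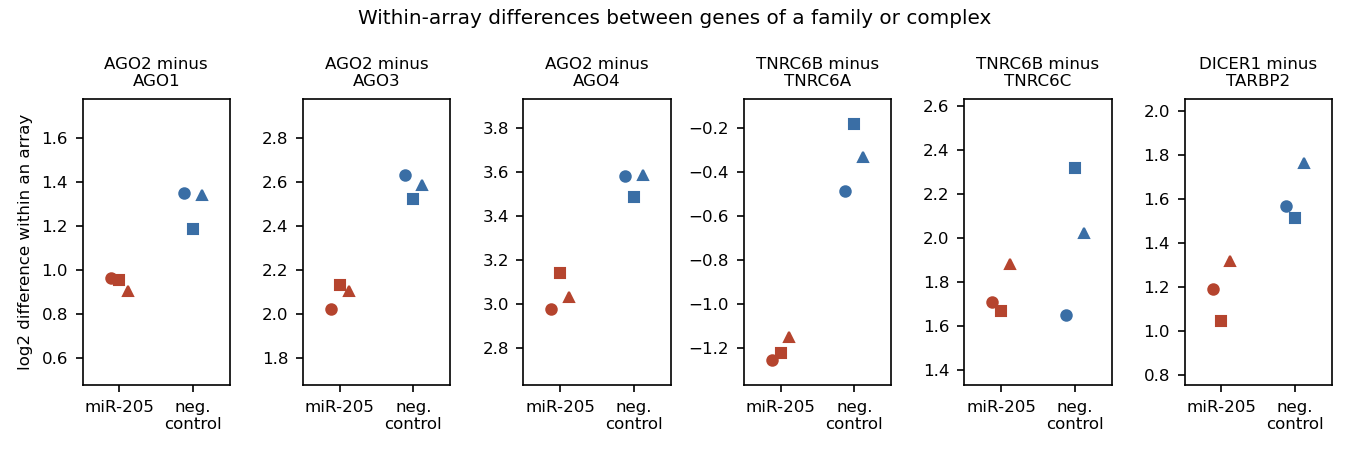
Log2 intensity of the first gene minus that of the second in the same array, for the 3 miR-205 arrays (red, left) and the 3 negative control arrays (blue, right), with circles, squares and triangles for replicates 1, 2 and 3 and each panel covering 1.3 log2 units. The groups lie apart in 5 of the 6 pairs and overlap for TNRC6B minus TNRC6C.

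The genes most like AGO2 over the 6 arrays, by the root-mean-square difference of values centred on each gene's own mean, were TENT4A, which encodes a noncanonical poly(A) polymerase (0.04), NAA25, a subunit of an N-terminal acetyltransferase (0.05), and HOXB13, a homeobox gene of the prostate (0.05). NAA25 was also among the 3 nearest to TNRC6B (0.03), with the chloride transporter gene CLCN5 (0.03) and TBL1X, a corepressor subunit (0.04). Nearest to MOV10 were the ribosomal protein gene RPL22 (0.02), the acyltransferase gene LPCAT4 (0.02) and CDK5RAP3 (0.02). These distances are descriptions over 6 arrays that share the group difference.

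Other genes of the microRNA pathway were mixed. Of 87 measured genes in 7 further lists, 21 were lower, 13 higher and 53 did not pass (39.1% passed, against 26.6% of all genes), with a median log2 change of -0.04. The share over all genes again counts dim ones. With dim genes filtered out, 20 of the listed genes were lower and 16 higher, and 2787 and 2483 of all genes kept. Shares over the genes kept were not worked out, so these counts cannot be compared. The 39.1% against 26.6% therefore does not show an excess in these lists. In the nucleus, where primary transcripts are cut and precursors are exported, 1 of 8 genes passed: XPO5, the exporter of precursor hairpins, was lower near the threshold (-0.26, adjusted p = 0.03), and its call ended without any 1 of the miR-205 arrays or negative control replicate 3. The nuclear processing genes DROSHA (-0.13, adjusted p = 0.176) and DGCR8 (0.03, adjusted p = 0.859), named after their values were seen, did not pass.

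Among Dicer partners and the chaperones that load Argonaute, 6 of 13 were higher and 1 was lower. Over all genes, dim ones included, 12.6% were higher and 14.0% lower. FKBP4, a cochaperone of HSP90, rose by 0.75 (adjusted p = 0.000207), and TSN, the translin subunit of a nuclease that removes the passenger strand, by 0.26. DNAJA1, a chaperone of the HSP40 class, fell by 0.73 (adjusted p = 0.000847). The other genes that rose moved by 0.18 to 0.25, and the count of higher genes was 5 without negative control replicate 2 and 1 to 2 without any other single array.

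Of 22 genes for Argonaute-associated and P-body proteins, 9 were lower and 0 higher at the adjusted threshold, with a median of -0.18. GEMIN4, a protein of the SMN complex also found with AGO2, fell by 0.51 (adjusted p = 0.000495), UPF1, the helicase of nonsense-mediated decay, by 0.81. ELAVL1, which binds AU-rich elements, had a change of -0.39. The 9 covered 40.9% of the list, against 14.0% lower and 12.6% higher over all genes, shares that also count dim genes. Of the list, 7 to 9 were lower with 1 array left out. The count of higher genes was 1 without miR-205 replicate 3, with the replicate block and with a robust variance with a trend. At an unadjusted p under 0.05 by limma 1 gene was higher: AJUBA, with a change of 0.26, had an unadjusted p of 0.0269 and an adjusted p of 0.0839.

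Of 21 deadenylation and decapping genes, through which a TNRC6 scaffold acts, 5 were lower and 3 higher. The decapping enzyme gene DCP2 fell by 0.75 (adjusted p = 0.000198). CNOT10, a subunit of the CCR4-NOT complex, rose by 0.51 and the deadenylase gene CNOT6L by 0.42. The other genes of these counts, named after their values were seen, were CNOT1 (-0.37), PABPC4 (-0.29), PAN3 (-0.26) and TOB2 (-0.85) among the lower and PAN2 (0.65) among the higher. PAN2 and PAN3, which encode the subunits of 1 deadenylase, thus went in opposite directions, with PAN3 near the threshold (limma adjusted p = 0.0436). The groups overlapped for TOB2, and 3 genes were lower without any 1 of miR-205 replicates 2 and 3 or negative control replicates 1 and 3.

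Enzymes reported to modify Argonaute protein passed in 7 of 9 cases, 4 lower and 3 higher. Over all genes, dim ones included, 26.6% passed, and the list was chosen with earlier results known. The count of higher genes was 4 with dim genes filtered out and 5 with a robust variance with a trend. PPP6C, the catalytic subunit of a phosphatase that acts on AGO2, rose by 0.57 (adjusted p = 0.000362), while ANKRD52, a subunit of the same phosphatase named after its values were seen, had a change of -0.41 (adjusted p = 0.00242). PTPN1, a tyrosine phosphatase, rose by 0.56, and EGFR, a receptor kinase that phosphorylates AGO2, fell by 0.50. Of the subunits of prolyl 4-hydroxylase, also named afterwards, P4HA1 rose by 0.25, while P4HA2 (-0.34) and P4HB (-0.28) were lower.

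Of 10 genes for precursor regulation and microRNA turnover, 1 passed: ZSWIM8, which takes part in target-directed microRNA decay, rose by 0.35 (adjusted p = 0.00364). The PIWI genes, relatives of the Argonautes that act in the germ line, averaged under the olfactory receptor level in all 4 cases. PIWIL4 was called lower (-0.22, adjusted p = 0.0195) at a mean of 4.03, so the size of that change is not well measured, and the call ended without miR-205 replicate 2 or 3.

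**Figure D5:**
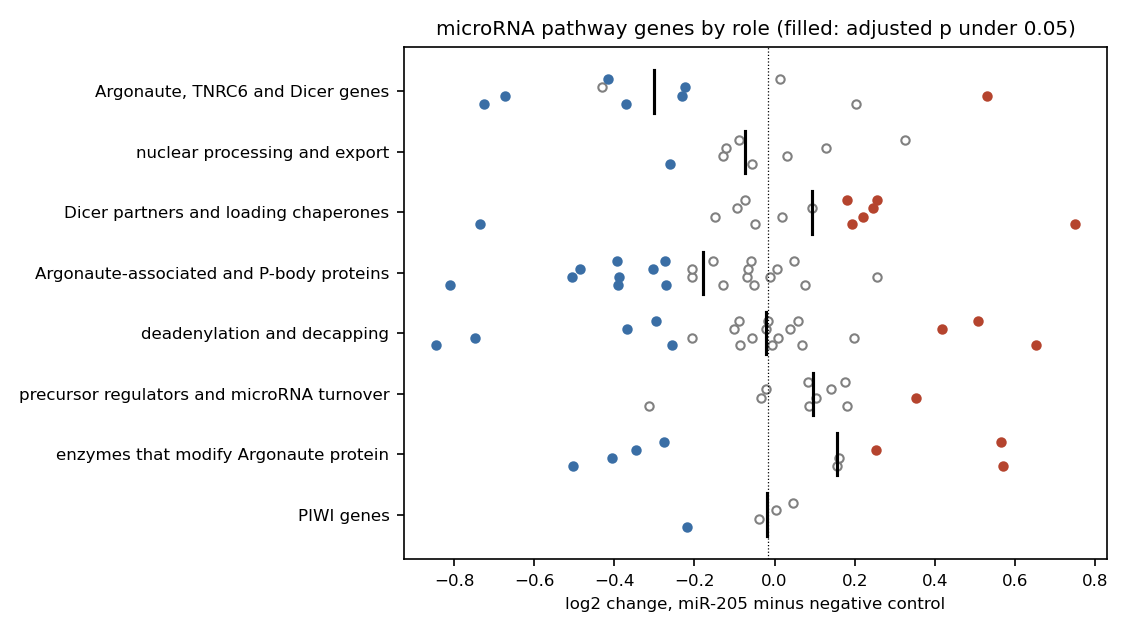
Log2 change (miR-205 minus negative control) of each measured gene by role, filled blue (lower) or red (higher) where the limma adjusted p was under 0.05 and open grey otherwise, with a black bar at each list's median and a dotted line at the median of all genes. The medians are -0.30 for the Argonaute, TNRC6 and Dicer genes, -0.18 for Argonaute-associated and P-body proteins and 0.09 for Dicer partners and loading chaperones. Positive medians were also found for enzymes that modify Argonaute protein (0.16) and for precursor regulators and microRNA turnover (0.095).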

How the data were processed

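The deposited values were log2 intensities, for which the submitters' processing notes name RMA and Affymetrix Expression Console 1.1.2. They were used without further normalization. RMA brings arrays to a common distribution and tends to compress fold changes of dim probe sets. Of 33297 probe sets, 19460 carried 1 gene symbol, and a gene with several was read from its brightest by mean, giving 18417 genes. The comparison used limma 3.58.1 under R 4.3.3 (lmFit and eBayes on the group alone), with two-sided p-values adjusted by Benjamini-Hochberg over all genes and a threshold of 0.05. Samples were grouped by their titles. The limma step was tested on simulated data, with independent noise and far fewer changed genes than were called here. The pairs, the nearest genes and the lists were not tested in that way. The 10 genes, the lists and the pairs were chosen with earlier results of these data known. Named genes were these 10, in each list the genes with the smallest p among those that passed (at most 3), the 3 genes nearest to AGO2, TNRC6B and MOV10 (leaving out LOC, orf and FAM symbols), and those marked as chosen afterwards. The number of arrays limits the precision.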

Additional observations from a re-analysis of the deposited data

How the results depend on the processing

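The changes of the 10 genes and the counts of called genes were recomputed under 9 other settings and with each of the 6 arrays left out in turn. The within-array pairs were recomputed with the mean of probe sets and with each array left out only, and the nearest genes under no other setting. The settings were repeated quantile normalization, median centring, a filter on dim genes, the mean of a gene's probe sets, every probe set tested, a robust variance with a trend, weights on arrays, a replicate block, and removal of the trend of change with signal level, which was added after the data were seen. AGO1, AGO2, TNRC6B, DICER1 and MOV10 kept direction and call in all 15. AGO3 and AGO4 kept their direction but lost their calls in 7 of the 15 each, among them the replicate block (adjusted p = 0.0756 and 0.0549). TNRC6C passed in 2, array weights and without negative control replicate 2. TARBP2, never called, lay between -0.02 and 0.06. Genes called over the whole array numbered 1777 to 2881 lower and 1588 to 2668 higher with 1 array left out, against 2586 and 2320 with all. Arrays of the same replicate number did not deviate together (r = 0.06, 0.09 and 0.01 across genes), so the numbers were not taken as pairs. With the replicate block 4 of the 10 genes were lower and 1 higher, beside 2423 lower and 2204 higher over all genes. The groups' small size, 3 arrays each, limits what can be said of changes near 0.2 on the log2 scale.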
